A study of Mus musculus with 12 samples.

Results

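The mitochondrially encoded genes are the 33 of 28116 gene symbols in the deposited expression table that start with "mt-". They were taken by symbol alone, and they comprise 13 protein-coding genes, 2 ribosomal RNA (rRNA) genes and 18 transfer RNA (tRNA) genes. The GENCODE M21 annotation of the mouse mitochondrial chromosome holds 37 genes, 22 of them tRNAs. The symbols mt-Td, mt-Tk, mt-Tg and mt-Tr, all tRNA genes, were not in the table and were not analysed here. A filter on low values (at least 1 CPM, a read count scaled for library size, in at least 3 of the 12 libraries) left 25 members for testing, of which 9 were protein-coding, 2 were rRNAs and 14 were tRNAs. The untested members were mt-Atp8, mt-Atp6, mt-Nd3 and mt-Nd4l among the protein-coding genes and mt-Tf, mt-Tv, mt-Ts1 and mt-Tt among the tRNAs.

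RNA came from tibialis anterior muscle of mice aged 4 months and of strain C57BL/10ScSn-Dmdmdx/J. All groups carry the Dmdmdx allele, which removes functional dystrophin, and all received cardiotoxin (CTX), a venom toxin that kills muscle fibres and starts regeneration. The 4 groups of 3 libraries were anti-miR-106b at day 7, scrambled control at day 7, anti-miR-106b at day 3 and scrambled control at day 3 after the injection. An anti-miR is an oligonucleotide that blocks a microRNA, here miR-106b, whose own level was not analysed here. The description of the study gives animals in triplicate, and it names day 5 once where every sample label has 3 or 7.

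The mitochondrial chromosome is a small circle that is copied into RNA from both strands as long precursors. The transcript of the heavy strand holds most genes, and the light-strand transcript holds mt-Nd6 and several tRNAs. Transfer RNAs lie between the larger genes, and cutting them out of the precursor frees the mRNAs and rRNAs, after which most mRNAs receive a short poly(A) tail. The mRNAs encode core subunits of respiratory complexes I (mt-Nd genes), III (mt-Cytb) and IV (mt-Co genes) and of ATP synthase (mt-Atp genes). The rRNAs and tRNAs serve the ribosome that translates them inside the organelle, while all other subunits and factors come from nuclear genes. Mature muscle fibres are rich in mitochondria.

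The recovered libraries held 28857739 to 42825246 reads, of which the members took 4.80% to 10.7%. The highest row in each group was Acta1, skeletal muscle actin, and all 15 markers of mature fast fibres passed the filter. Levels of members are given as log2 CPM on the scale of the deposited table or, between genes, as CPM per kilobase of gene. In muscle as a whole, fewer cells of a type and less RNA per cell cannot be told apart. Strand-specific counting is not given in the sources used here, so reads of mt-Nd6 and of the light-strand tRNAs cannot be told apart from heavy-strand RNA that runs across them.

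The protein-coding members fell into a high and a very low set, and the low set lies in an interval for which the nuclear genome holds near-identical annotated copies of several genes. Averaged over the 12 libraries, mt-Co1 had 16318, mt-Cytb 15043, mt-Nd1 13716, mt-Nd2 8652, mt-Nd6 7127, mt-Nd4 5923 and mt-Nd5 3834 CPM per kilobase. These 7 genes had 70606 to 1396788 reads in a library. By contrast mt-Co2, which encodes the second core subunit of complex IV, had 13 to 50 reads, mt-Co3 had 13 to 37 and mt-Atp6 had 11 to 40. The remaining genes of the low set, mt-Nd3, mt-Nd4l and mt-Atp8, had at most 12, 7 and 8 reads. On the GRCm38 build (mm10), chr1:24611535-24616197 on the minus strand holds annotated pseudogenes that follow the order of mitochondrial positions 6381 to 11043. The stretch is 4663 bases long. By position, 11 mitochondrial genes lie wholly within the corresponding interval and 2 others, mt-Co1 and mt-Nd4, in part. The 6 mRNAs with almost no reads are among the 11, as are the 4 tRNA genes that are not in the table. Sequence could be aligned only where a pseudogene is annotated, which leaves out mt-Atp8 and the tRNA genes.

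Gene by gene, the pseudogene Gm28661 matched mt-Co2 over 681 bases with 0 mismatches, Gm10925 matched mt-Atp6 over 678 with 0 and Gm28437 matched mt-Co3 over 783 with 0. Of the 75-base windows in these genes, 0.492% in mt-Co2, 0.494% in mt-Atp6 and 0.141% in mt-Co3 were not found in a nuclear transcript. The corresponding share was 2.19% in mt-Nd3, 1.35% in mt-Nd4l, 38.5% in mt-Nd4, 60.2% in mt-Co1 and 94.3% in mt-Nd2. It was 98.3% in mt-Nd5 and 100% in mt-Nd1, mt-Nd6 and mt-Cytb. For mt-Atp8 it was also 100%, because no pseudogene is annotated at its place between the copies of mt-Co2 and mt-Atp6. The comparison covered annotated transcripts, not the whole genome. How reads with several matching places were treated is not given in the sources used here. The levels of mt-Co2, mt-Co3, mt-Atp6, mt-Atp8, mt-Nd3 and mt-Nd4l are therefore uncertain, and those of mt-Nd4 and mt-Co1 are uncertain in part, since read coverage along the genes was not measured here.

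A single base separates mt-Nd3 from its copy Gm28438 over 345 aligned bases, the substitution T3C, with positions counted from 1 at the first base of the gene. The first 60 bases of both are shown because the copy held more reads than the gene, with the differing base in capitals (GENCODE M21 transcripts, GRCm38, chrM:9459-9518 on the plus strand and chr1:24613060-24613119 on the minus strand).
mt-Nd3: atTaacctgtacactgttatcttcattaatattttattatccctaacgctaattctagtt
Gm28438: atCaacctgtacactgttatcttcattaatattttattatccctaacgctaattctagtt
Gm28438 had 245 to 776 reads in a library, against 1 to 12 for mt-Nd3. Other copies also had a higher range than their gene. Gm28661 had 47 to 99 (mt-Co2 13 to 50), Gm28437 26 to 60 (mt-Co3 13 to 37) and Gm10925 17 to 51 (mt-Atp6 11 to 40). The copies of the abundant mRNAs had far fewer reads than their gene. Gm28438 was lower with anti-miR-106b at day 3 by a log2 fold change of -0.76 ± 0.23 (SE, limma adjusted p = 0.0193). Its day 7 against day 3 changes were 1.69 with anti-miR-106b and 0.62 with scrambled, both passing. Reads that do not cover base 3 match both over the aligned bases and cannot be told apart. Of the other tested copies, Gm28661 (-0.78), Gm28437 (-0.83), Gm10925 (-0.73), Gm13340 (-0.99) and Gm13339 (-1.06) also passed as lower at day 3, where 19.4% of all tested genes were lower. Gm29216 (-0.56) and Gm13341 (-0.63) did not pass. The origin of the reads of all these copies was not tested.

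**Figure D1:**
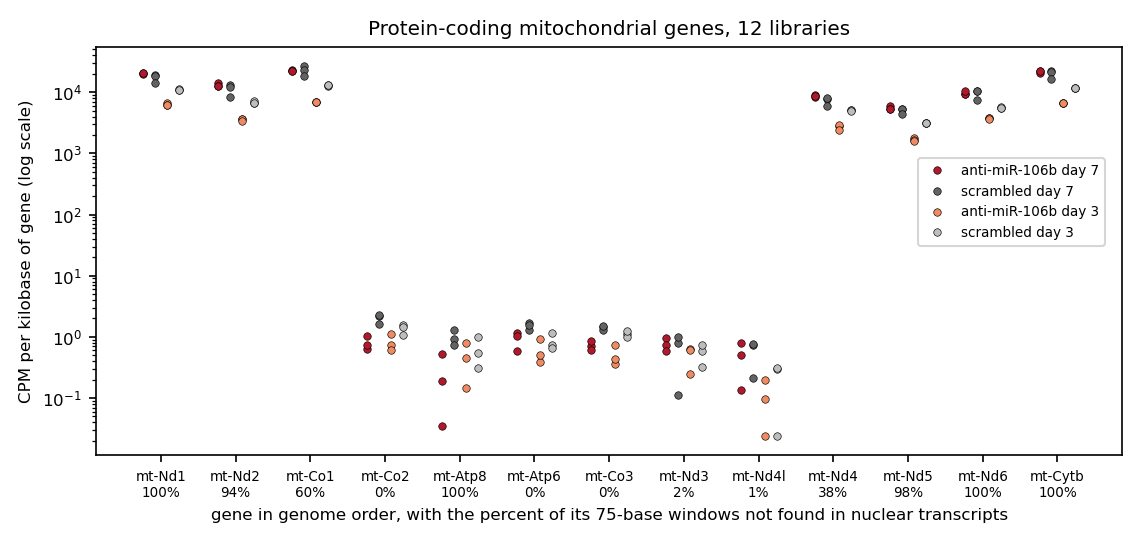
CPM per kilobase (log scale) of the 13 protein-coding members in genome order, with 1 point per library and colours for the 4 groups. Under each gene is the rounded percent of its 75-base windows not found in a nuclear transcript. The 6 genes from mt-Co2 to mt-Nd4l sit far below the other 7, and libraries with 0 reads of mt-Atp8 or mt-Nd4l are drawn at the deposited value, which includes the prior count the authors added.

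The summed share of reads was lowest with anti-miR-106b at day 3, where the libraries held 4.83%, 4.80% and 4.80% mitochondrial reads, against 7.76%, 7.54% and 7.62% with scrambled. At day 7 the shares were 10.7%, 10.1% and 9.94% with anti-miR-106b, against 10.5%, 10.1% and 8.18% with scrambled. The day 3 groups did not overlap, while the day 7 groups did, and scrambled replicate 3 was the lowest library of day 7. The difference of means was -2.83 percentage points at day 3 (two-sided exact permutation test, p = 0.1, the smallest that 3 against 3 allows) and 0.628 points at day 7 (p = 0.6). Without scrambled day 7 replicate 3 the day 7 difference was -0.0784 points. The share was higher at day 7 than at day 3 by 5.41 points with anti-miR-106b and by 1.95 points with scrambled (exact permutation p = 0.1 for each). Permuted within both arms together, the day difference of 3.68 points had an exact p of 0.005, the smallest that 400 assignments allow, and 0.04 after adjustment over 8 such tests. The inhibitor difference within days, -1.10 points, had an exact p of 0.075 and an adjusted p of 0.12.

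**Figure D2:**
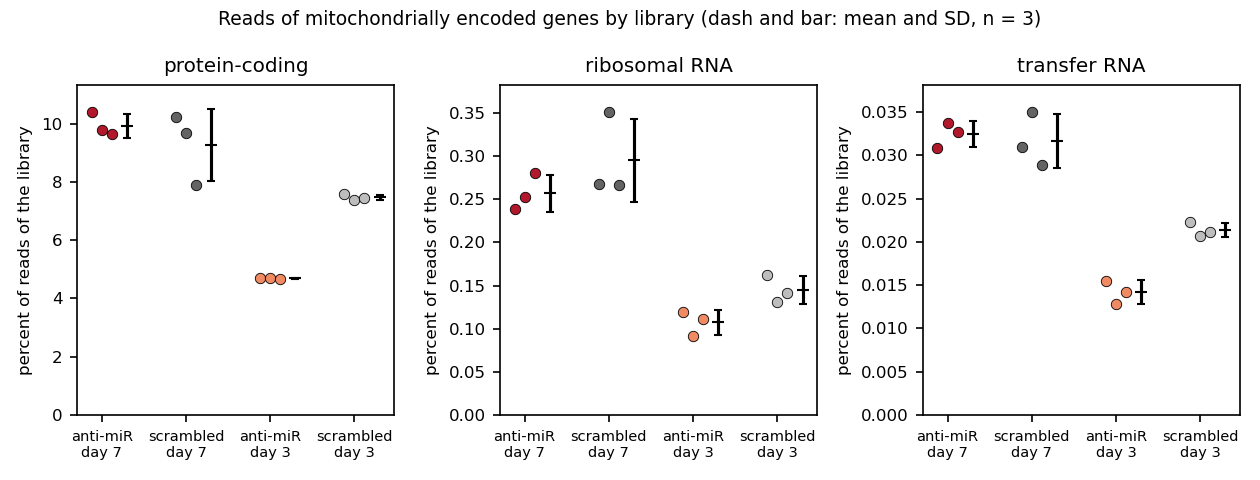
Percent of a library's reads that belong to protein-coding, ribosomal and transfer RNA members, with 1 point per library and the mean and SD of each group (n = 3). In all 3 classes the anti-miR-106b day 3 libraries are the lowest set and do not overlap the scrambled day 3 libraries, while the day 7 groups overlap.

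At day 3 the mRNAs of complex I were lower with anti-miR-106b, and all 5 tested mt-Nd genes passed. Levels of mt-Nd5, a membrane-arm subunit, were 11.65, 11.54 and 11.48 log2 CPM with anti-miR-106b and 12.50, 12.46 and 12.48 with scrambled. The groups stood apart by more than their own range, with a log2 fold change of -0.92 ± 0.11 (SE, limma adjusted p = 6.94e-05). For mt-Nd2 the levels were 11.87, 11.90 and 11.76 with anti-miR-106b and 12.76, 12.84 and 12.78 with scrambled, a fold change of -0.95 ± 0.14 (adjusted p = 0.000308). Also lower were mt-Nd4 at -0.89 ± 0.13 and mt-Nd1 at -0.81 ± 0.13. The light-strand gene mt-Nd6 had 10.93, 10.93 and 10.86 log2 CPM with anti-miR-106b and 11.50, 11.53 and 11.50 with scrambled. Its fold change of -0.60 ± 0.12 (adjusted p = 0.00176) was nearest to 0 among the 7 abundant mRNAs.

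The mRNAs mt-Cytb of complex III and mt-Co1 of complex IV were lower at day 3 as well. Cytochrome b, mt-Cytb, had 12.92, 12.90 and 12.89 log2 CPM with anti-miR-106b and 13.70, 13.73 and 13.71 with scrambled, with no overlap and a log2 fold change of -0.81 ± 0.13 (limma adjusted p = 0.00059). The catalytic subunit of complex IV, mt-Co1, had 13.36, 13.38 and 13.37 with anti-miR-106b and 14.25, 14.31 and 14.29 with scrambled, a fold change of -0.91 ± 0.15 (adjusted p = 0.00068). Among the uncertain genes mt-Co3 passed at -1.19 ± 0.29 from 13 to 22 reads with anti-miR-106b and 28 to 35 with scrambled, and mt-Co2 did not pass at -0.76 ± 0.30 (adjusted p = 0.0656). Both reached 1 CPM in scrambled libraries only, so that a lower value with anti-miR-106b was favoured by the filter. Without anti-miR-106b day 3 replicate 3, mt-Co2 had a fold change of -1.01 with an adjusted p of 0.0292, and it also passed with voom weights (0.0401) and without the variance trend (0.0451). All 7 abundant protein-coding members were lower, where 19.4% of all 14063 tested genes were lower. With mt-Co3, which the filter favoured, 8 of the 9 tested were. The median over the 9 genes, mt-Co2 and mt-Co3 included, was -0.89, against 0.01 over all tested genes. In 8 of the same 9 the groups did not overlap, which held in this direction for 29.3% of tested genes.

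At day 7 no member passed the inhibitor comparison in limma, where 0.064% of all tested genes did. An unadjusted p below 0.05 was reached by 6 of the 25 members, and with voom weights none passed either. Levels of mt-Nd4 were 13.60, 13.50 and 13.56 log2 CPM with anti-miR-106b and 13.38, 13.42 and 12.98 with scrambled, a log2 fold change of 0.30 ± 0.13 (adjusted p = 0.408). For mt-Co1 the levels were 15.14, 15.05 and 15.08 with anti-miR-106b and 15.36, 15.14 and 14.77 with scrambled, and these groups overlapped. The 7 abundant mRNAs ranged from -0.0026 for mt-Co1 to 0.30 for mt-Nd4. The values of mt-Co2 and mt-Co3 were -1.35 ± 0.30 (adjusted p = 0.107) and -0.98 ± 0.29 (adjusted p = 0.229). In reads, mt-Co2 had 13, 20 and 15 with anti-miR-106b and 50, 39 and 48 with scrambled.

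The difference between the inhibitor effects of both days was tested directly. The effect at day 7 minus that at day 3 was 1.21 ± 0.20 for mt-Nd2 (SE, limma adjusted p = 0.00181), 1.19 ± 0.18 for mt-Nd4 and 1.07 ± 0.15 for mt-Nd5 on the log2 scale. It passed in 7 of 9 protein-coding members, 1 of 2 rRNAs and 7 of 14 tRNAs, each with a positive sign, where 13.2% of all tested genes passed with that sign. The exceptions among the mRNAs were mt-Co2 at -0.59 ± 0.43 and mt-Co3 at 0.21 ± 0.42. Among the passing tRNAs, mt-Tw reached 1 CPM in every anti-miR-106b day 7 library. It did not in every scrambled day 7 library, and in none of day 3. The filter therefore favoured a positive value for mt-Tw.

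**Figure D3:**
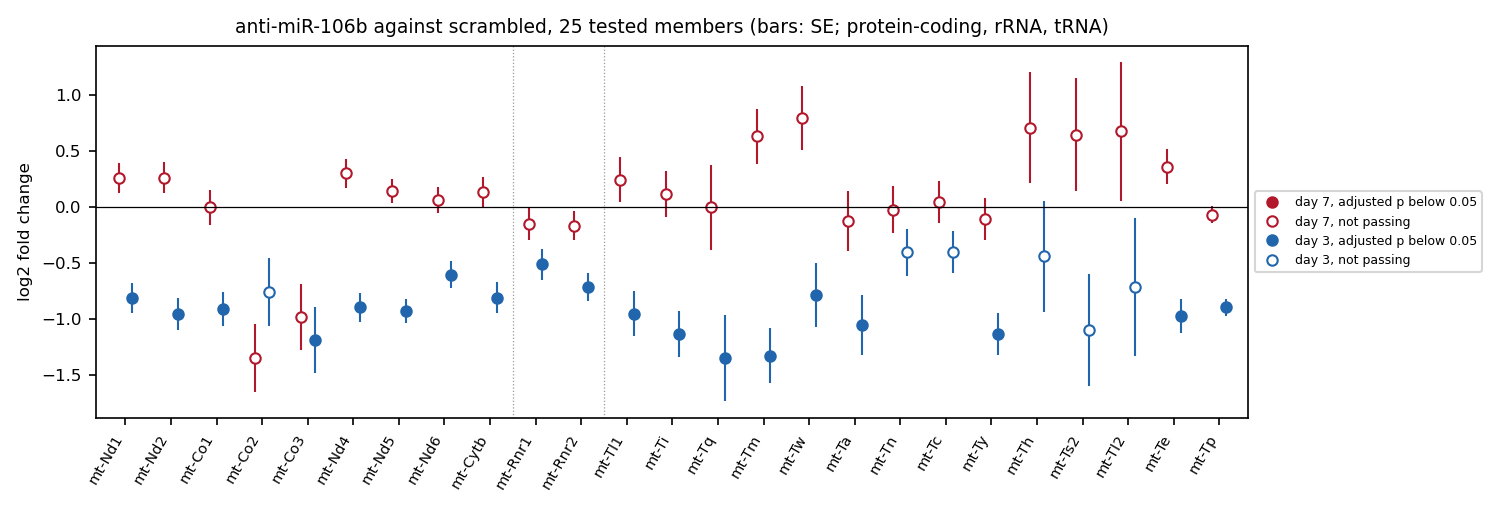
Log2 fold change of anti-miR-106b against scrambled at day 7 and at day 3 for the 25 tested members, ordered by class and then by genome position, with SE bars and filled points for an adjusted p below 0.05. All 25 day 3 values are below 0 and 19 of them are filled, while none of the day 7 values is filled.

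Mitochondrial mRNAs were higher at day 7 than at day 3 in both arms. With anti-miR-106b, mt-Nd1 had 14.28, 14.20 and 14.26 log2 CPM at day 7 and 12.63, 12.55 and 12.50 at day 3, a log2 fold change of 1.68 ± 0.13 (SE, limma adjusted p = 4.38e-08). With scrambled, mt-Nd1 had 14.18, 14.08 and 13.70 at day 7 and 13.35, 13.42 and 13.36 at day 3, a fold change of 0.61 ± 0.13 (adjusted p = 0.00106). Neither arm's days overlapped for mt-Nd1. With anti-miR-106b the 7 abundant mRNAs changed by 1.39 for mt-Nd6 to 1.89 for mt-Nd2, and 7 of 9 protein-coding members were higher, where 37.9% of all tested genes were. With scrambled they changed by 0.49 for mt-Nd4 to 0.81 for mt-Co1, and again 7 of 9 were higher, where 32.9% of all tested genes were. In neither arm did mt-Co2 (-0.0070 with anti-miR-106b and 0.58 with scrambled) or mt-Co3 (0.54 and 0.33) pass. Without anti-miR-106b day 3 replicate 3, mt-Co3 passed in that arm at 0.84 (adjusted p = 0.0163).

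The size of these day changes depended on how libraries were scaled. Scaling to total reads moved the median of all tested genes to -0.67 with anti-miR-106b and -0.42 with scrambled in the day comparison, and to 0.20 in the day 3 inhibitor comparison. On that scale the scrambled day change of mt-Nd1 was 0.20 (adjusted p = 0.0838) and that of mt-Nd4 was 0.087 (adjusted p = 0.447), and neither passed. Under quantile normalization, which gives all libraries the same distribution of values, the scrambled day change turned negative for 6 of the 7 abundant mRNAs, from -0.27 for mt-Nd1 to -0.041 for mt-Nd6, and was 0.021 for mt-Co1. The day 3 inhibitor values of the 9 mRNAs kept their sign under each scaling, although under quantile normalization mt-Nd1 (-0.13), mt-Co1 (-0.084) and mt-Cytb (-0.080) did not pass.

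**Figure D4:**
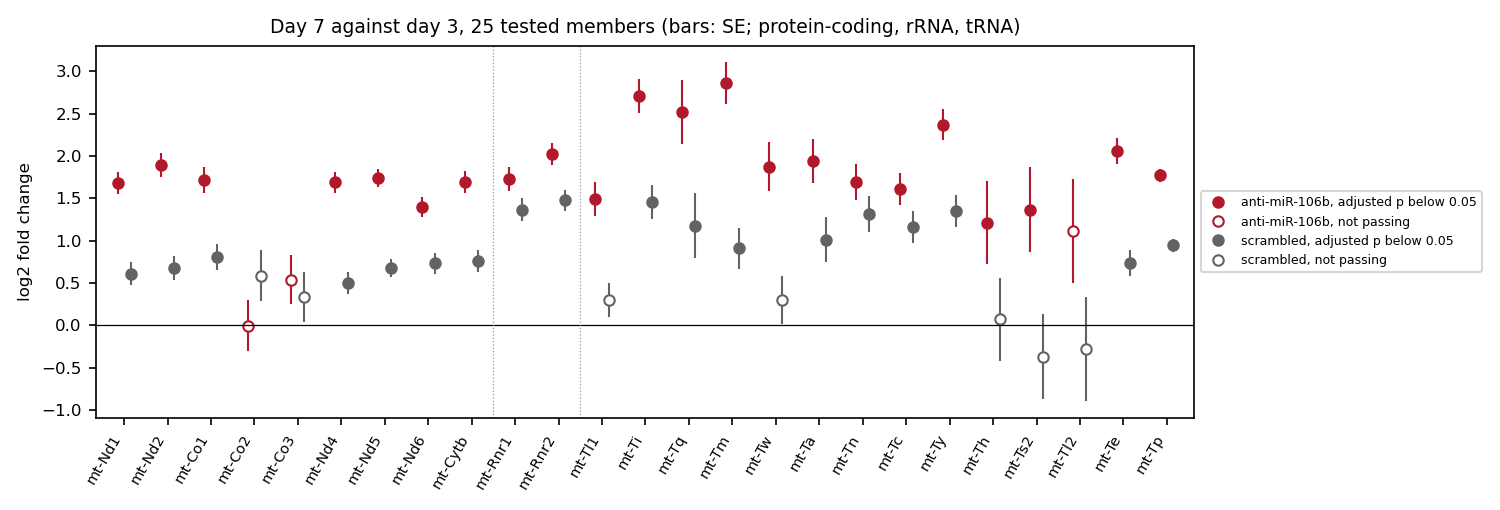
Log2 fold change of day 7 against day 3 with anti-miR-106b and with scrambled for the 25 tested members on the deposited scale, with SE bars and filled points for an adjusted p below 0.05. Values with anti-miR-106b lie above those with scrambled except for mt-Co2, and under quantile normalization the scrambled values of 6 abundant mRNAs turn negative.

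The rRNAs of the small and large mitochondrial ribosomal subunits were measured at a lower level than the abundant mRNAs, 964 CPM per kilobase for mt-Rnr1 and 800 for mt-Rnr2. These are levels in the sequenced libraries. Library preparation can take up rRNAs, tRNAs and mRNAs unevenly, and the levels of these classes in the muscle itself were not measured. At day 3 mt-Rnr2 had 8.98, 8.57 and 8.86 log2 CPM with anti-miR-106b and 9.64, 9.42 and 9.50 with scrambled, without overlap. Its log2 fold change was -0.72 ± 0.13 (SE, limma adjusted p = 0.000871). For mt-Rnr1 the levels were 8.79, 8.43 and 8.57 with anti-miR-106b and 9.26, 9.01 and 9.07 with scrambled, a fold change of -0.51 ± 0.14 (adjusted p = 0.012). Scaling to total reads ended this call (adjusted p = 0.0603), as did leaving out anti-miR-106b day 3 replicate 2 (adjusted p = 0.0612). At day 7 the values were -0.15 ± 0.14 for mt-Rnr1 and -0.17 ± 0.13 for mt-Rnr2, and neither passed. From day 3 to day 7 both rRNAs were higher, mt-Rnr2 by 2.02 ± 0.13 with anti-miR-106b and 1.47 ± 0.13 with scrambled, and mt-Rnr1 by 1.73 ± 0.14 and 1.37 ± 0.14 in the same order of arms. The difference between the inhibitor effects of the days passed for mt-Rnr2 (0.55 ± 0.18, adjusted p = 0.0414) and not for mt-Rnr1 (0.36 ± 0.20). Leaving out any of 8 single libraries ended the mt-Rnr2 call (adjusted p 0.0545 to 0.111). So did scaling to total reads (0.33, adjusted p = 0.149) or to total reads without the members (0.39, adjusted p = 0.11), no filter (adjusted p = 0.0648) and no variance trend (adjusted p = 0.0692).

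The tRNA members spanned a wide range of levels, and those with most reads were light-strand genes. Proline tRNA mt-Tp had 1753 CPM per kilobase, glutamate tRNA mt-Te 786, cysteine tRNA mt-Tc 681 and asparagine tRNA mt-Tn 365. Their sequences are shown because these genes carry most tRNA reads, and the anticodon is in capitals (GENCODE M21 transcripts, GRCm38, minus strand of the mitochondrial chromosome).
mt-Tp: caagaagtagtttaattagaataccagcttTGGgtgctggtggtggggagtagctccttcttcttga
mt-Te: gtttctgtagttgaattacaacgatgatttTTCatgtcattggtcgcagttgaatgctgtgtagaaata
mt-Tc: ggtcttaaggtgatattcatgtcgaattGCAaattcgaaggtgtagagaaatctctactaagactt
mt-Tn: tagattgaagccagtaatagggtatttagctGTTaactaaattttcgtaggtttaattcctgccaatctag
They lie at chrM:15356-15422, chrM:14071-14139, chrM:5192-5257 and chrM:5089-5159. Asparagine and cysteine tRNA are neighbours with 32 bases between them, the place where light-strand DNA replication is known to start. Glutamate tRNA lies 5 bases from mt-Cytb, and proline tRNA borders the control region, which holds the promoters. The read counts do not separate mature tRNAs from precursors that still contain them.

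At day 3, 9 of 14 tested tRNA members were lower with anti-miR-106b and none was higher, where 19.4% of all tested genes were lower. Levels of mt-Tp were 5.63, 5.49 and 5.61 log2 CPM with anti-miR-106b and 6.53, 6.41 and 6.46 with scrambled. The groups did not overlap, and the log2 fold change was -0.89 ± 0.07 (SE, limma adjusted p = 1.54e-05). For mt-Te the levels were 4.61, 4.44 and 4.07 with anti-miR-106b and 5.37, 5.39 and 5.27 with scrambled, a fold change of -0.97 ± 0.15 (adjusted p = 0.000425). Methionine tRNA mt-Tm, with 39 to 69 reads with anti-miR-106b and 99 to 136 with scrambled, had a log2 fold change of -1.33 ± 0.24. Glutamine tRNA mt-Tq, its neighbour, had 4 to 14 reads with anti-miR-106b and 12 to 22 with scrambled, and a fold change of -1.35 ± 0.38. The call of mt-Tq ended when the third anti-miR-106b library or the second scrambled library of day 3 was left out (adjusted p 0.0596 and 0.06), and that of tryptophan tRNA mt-Tw (-0.79 ± 0.29) ended without any of 10 single libraries (0.0505 to 0.131) and under 6 of the other settings, among them scaling to total reads (0.0563 to 0.0993). The other passing members were mt-Ta, mt-Ti, mt-Tl1 and mt-Ty, between -0.95 and -1.13.

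The neighbours mt-Tc and mt-Tn did not pass at day 3. Levels of mt-Tc were 4.69, 4.06 and 4.48 log2 CPM with anti-miR-106b and 4.86, 4.79 and 4.80 with scrambled, a log2 fold change of -0.40 ± 0.19 (SE, limma adjusted p = 0.111). For mt-Tn the levels were 3.84, 3.22 and 3.52 with anti-miR-106b and 3.79, 4.08 and 3.91 with scrambled, a fold change of -0.40 ± 0.21 (adjusted p = 0.15), and its groups overlapped. The remaining members, mt-Th (-0.44 ± 0.49), mt-Tl2 (-0.72 ± 0.62) and mt-Ts2 (-1.10 ± 0.50), had no more than 53 reads in any day 3 library.

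At day 7 the tRNA values of the inhibitor comparison ranged from -0.12 for mt-Ta to 0.79 for mt-Tw, and none passed. Between the days, 13 of 14 tRNAs were higher with anti-miR-106b, where 37.9% of all tested genes were, and 9 of 14 with scrambled, where 32.9% were. These counts include mt-Tq in both arms and mt-Tw with anti-miR-106b, which reached 1 CPM in day 7 libraries only, so that the filter favoured a higher value at day 7. With anti-miR-106b the call of mt-Th (1.21 ± 0.49) ended without any of 6 single libraries (adjusted p 0.0665 to 0.0852) and when scaled to total reads (0.59, adjusted p = 0.263). That of mt-Ts2 (1.37 ± 0.50) ended without any of 3 (adjusted p 0.0544 to 0.103). With anti-miR-106b, mt-Tm had 346, 284 and 203 reads at day 7 and 58, 69 and 39 at day 3, a log2 fold change of 2.86 ± 0.24 (SE, limma adjusted p = 9.73e-08). With scrambled it had 260, 224 and 132 reads at day 7 and 99, 136 and 114 at day 3, and 0.91 ± 0.24 (adjusted p = 0.00482). Scaling to total reads ended that scrambled call (0.50, adjusted p = 0.0726). Isoleucine tRNA mt-Ti changed by 2.70 ± 0.20 with anti-miR-106b and 1.46 ± 0.20 with scrambled. With scrambled, mt-Th, mt-Ts2, mt-Tl2, mt-Tl1 and mt-Tw did not pass, at 0.07, -0.37, -0.28, 0.30 and 0.30. The first 3 are adjacent genes, and 1 library, scrambled day 7 replicate 3, held 13, 7 and 6 of their reads against 81, 33 and 60 in replicate 1 and 87, 37 and 59 in replicate 2.

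To ask whether single members moved apart from the rest, all libraries were shifted so that the summed mitochondrial mRNA was equal, and every gene was fitted again. Here 4 of 25 members were higher with anti-miR-106b at day 3 and none lower, on a scale where 89.9% of all tested genes were higher. The most even was mt-Nd6, with 52.2, 52.5 and 52.3 reads per 1000 mitochondrial mRNA reads with anti-miR-106b and 44.0, 43.6 and 43.7 with scrambled. Its log2 difference was 0.26 ± 0.09 (SE, limma adjusted p = 0.0126), and no left-out library ended the call. The others were mt-Rnr1 at 0.35 ± 0.14 (adjusted p = 0.0297), mt-Tc at 0.46 ± 0.18 (adjusted p = 0.0222) and mt-Tn at 0.46 ± 0.21 (adjusted p = 0.0471). Leaving out 1 library ended the call of mt-Rnr1 in 4 cases (adjusted p 0.0657 to 0.125), of mt-Tc in 3 (0.0571 to 0.113) and of mt-Tn in 5 (0.0612 to 0.197). With the pool taken only from mRNAs with at least 90% unique windows, mt-Tn did not pass (0.43, adjusted p = 0.0555). The number of passing members was 1 without anti-miR-106b day 3 replicate 1 or replicate 3, and 2 without scrambled day 3 replicate 2 or replicate 3.

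At day 7 no member passed on this scale in limma, where 0% of all tested genes did in either direction, although 5 members had an unadjusted p below 0.05. Without scrambled day 7 replicate 1, 4 members passed. The share of all tested genes passing on this scale without that library was not counted. On the deposited scale, leaving it out raised the genes passing this comparison from 9 of 14063 to 456 of 14026. Between days, with anti-miR-106b, 6 members were higher relative to the pool and 3 lower, where 0.761% of tested genes were higher and 93.6% lower. The higher ones were mt-Rnr2 (0.32), mt-Te (0.35), mt-Ti (1.00), mt-Tm (1.15), mt-Tq (0.81) and mt-Ty (0.66), and the lower ones mt-Nd6 (-0.31 ± 0.09, adjusted p = 0.00327), mt-Co2 (-1.71) and mt-Co3 (-1.17). Of these, mt-Rnr2, mt-Te and mt-Tq lost their call without 1 library in 3, 2 and 8 cases, and the filter favoured a higher day 7 value for mt-Tq. With scrambled, 6 members were higher and 2 lower, where 1.74% of tested genes were higher and 75% lower. Higher were mt-Rnr1 (0.66), mt-Rnr2 (0.77), mt-Ti (0.75), mt-Ty (0.64), mt-Tc (0.45) and mt-Tn (0.60), and lower were mt-Nd4 (-0.21) and mt-Ts2 (-1.08). The calls of mt-Nd4, mt-Tc, mt-Tn and mt-Ts2 ended without 1 library in 10, 3, 1 and 2 cases, that of mt-Nd4 also with the pool of mRNAs with at least 90% unique windows (adjusted p = 0.0639), and without scrambled day 3 replicate 3 the count was 5. The difference between the inhibitor effects of the days passed for 1 member with a positive sign, mt-Tm (0.95), and for 5 with a negative one, where 0.0782% and 87.6% of tested genes did. Of these 5, mt-Co2 reached 1 CPM in scrambled libraries only, all those of day 7 among them. The filter therefore favoured its negative value.

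Ratios within a library need no scaling between libraries, but those between RNA classes can also depend on how library preparation took up each class. The log2 ratio of mt-Nd6 to the heavy-strand mRNAs was -4.51 ± 0.12 with anti-miR-106b and -4.43 ± 0.05 with scrambled at day 7, and -4.18 ± 0.0051 and -4.45 ± 0.0089 in those arms at day 3 (SD, n = 3). The day 3 difference of 0.27 had an exact permutation p of 0.1, the smallest possible. Within days together the inhibitor difference was 0.097 (exact p = 0.175, adjusted p = 0.233). The log2 ratio of rRNA to mRNA was higher at day 7 by 0.45 within arms (exact permutation p = 0.02, adjusted p = 0.08 over 8 tests), and that of tRNA to mRNA by 0.19 (exact p = 0.03, adjusted p = 0.08). The inhibitor differences of these ratios were -0.030 (exact p = 0.835) and 0.0047 (exact p = 0.95).

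**Figure D5:**
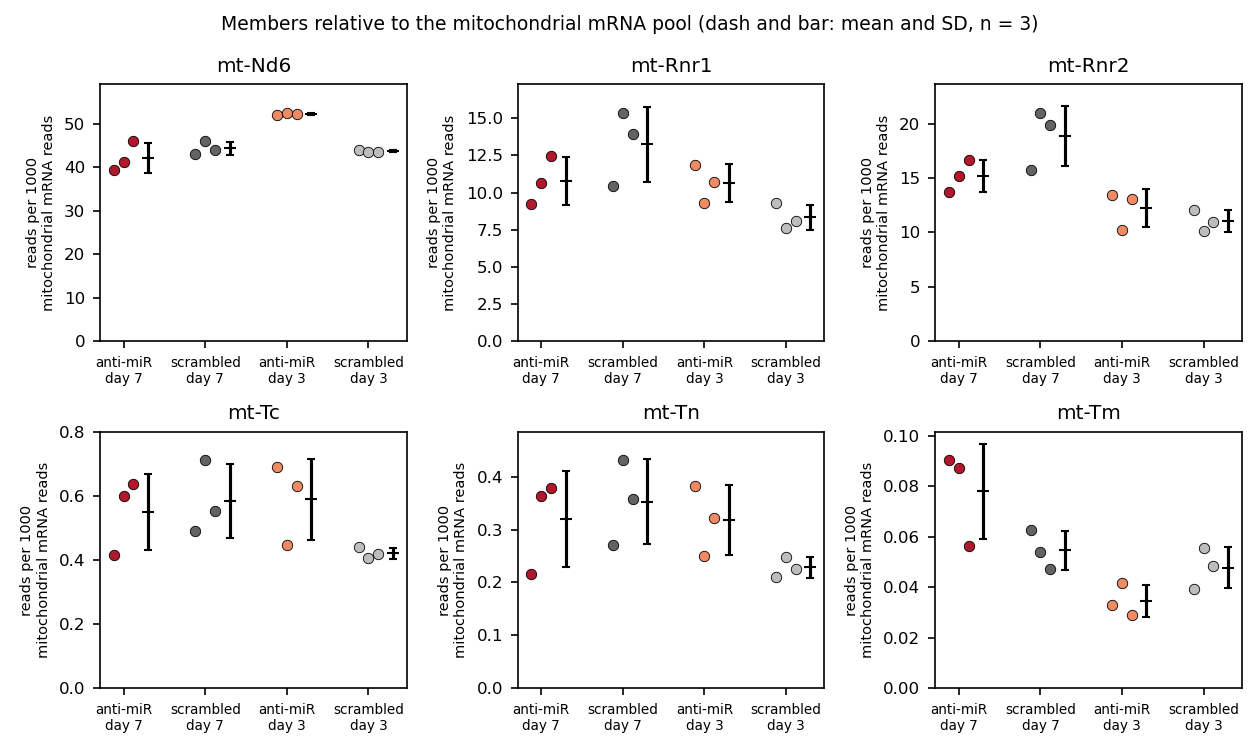
Reads of 6 members per 1000 mitochondrial mRNA reads, with 1 point per library and the mean and SD of each group (n = 3). For mt-Nd6 the 3 anti-miR-106b day 3 libraries lie between 52.2 and 52.5 and above all other libraries, while for mt-Rnr1, mt-Tc and mt-Tn the libraries of a group are spread more widely.

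Most tested nuclear genes for the same complexes were lower at day 3 as well. Of 79 tested nuclear subunits of the complexes, 70 were lower and 3 higher with anti-miR-106b at day 3, where 19.4% of all tested genes were lower and 16.3% higher. Their median log2 fold change was -0.46. Examples were Uqcrfs1, the iron-sulphur protein of complex III, at -0.71 ± 0.08 and Ndufs1 of complex I at -0.68 ± 0.07 (SE, limma adjusted p = 4.4e-05 and 4.0e-05). As a description, the log2 ratio of mitochondrial mRNA to summed nuclear subunit mRNA was 1.49 ± 0.16 with anti-miR-106b and 1.38 ± 0.12 with scrambled at day 7, and 1.10 ± 0.0087 and 1.50 ± 0.049 in those arms at day 3 (SD, n = 3). The day 3 difference was -0.40 (exact permutation p = 0.1, the smallest that 3 against 3 allows). Among 9 tested genes of mitochondrial transcription, 5 were lower at day 3 and none higher, including the promoter-melting factor Tfb2m (-0.53 ± 0.09) and the elongation factor Tefm (-0.36 ± 0.07). Of 21 genes for processing and stability of mitochondrial RNA, 6 were lower, among them Grsf1, an RNA granule protein, at -0.50 ± 0.07. The biogenesis regulators had 4 lower and 1 higher of 12, with the coactivator Ppargc1a at -0.70 ± 0.12. Translation factors had 7 lower of 12, complex IV assembly factors 6 lower of 15, and tRNA synthetases 3 lower and 2 higher of 19. For tRNA and rRNA modification the counts were 4 lower and 1 higher of 19, and for mitochondrial DNA replication and nucleotide supply they were 4 lower and 1 higher of 15. None of these genes passed at day 7.

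Among cell type markers, most of those of mature fast fibres were lower at day 3, and several of those of macrophages and of regenerating fibres were higher. Of all tested genes, 19.4% were lower and 16.3% higher in this comparison. Of 15 mature fast fibre markers 14 were lower (median -0.76 on the log2 scale), and their summed level was 63964 to 69650 CPM with anti-miR-106b and 100614 to 120251 with scrambled. The log2 ratio of mitochondrial mRNA to these markers was -0.87 ± 0.027 with anti-miR-106b and -0.72 ± 0.11 with scrambled at day 3 (SD, n = 3). At day 7 it was -0.76 ± 0.12 and -0.94 ± 0.28 in those arms. The difference was -0.15 at day 3 (exact permutation p = 0.1, the smallest possible) and 0.18 at day 7 (exact permutation p = 0.4). Of 14 macrophage markers 8 were higher, with a summed level of 4815 to 5242 CPM with anti-miR-106b and 3410 to 3466 with scrambled, and of 11 regenerating fibre markers 6 were higher. Neither the macrophage nor the regenerating fibre list held a gene that was lower. Of the remaining lists, 2 of 9 fibro-adipogenic, 2 of 8 endothelial, 1 of 5 erythroid, 1 of 5 T and NK cell and 0 of 4 neutrophil markers were higher and none was lower. Of the adipocyte and the Schwann cell markers, 1 of 5 each was lower and none higher. The counts of 1 or 2 genes in these remaining lists stay near the shares over all tested genes. The part of the cell types in the values of the members was not tested. Over the 12 libraries the nuclear protein-coding genes whose log2 CPM followed the summed mitochondrial mRNA most closely were Tigar (Pearson r = 0.995), Fam189a2 (0.995), Pfn2 (0.994), Ldhd (0.994) and Eya1 (0.994). These values describe libraries that share the same 4 groups.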

How the data were processed

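RNA of 12 tibialis anterior muscles was sequenced as TruSeq RNA libraries, per the labels' protocols. The submitters' processing notes name build mm10, STAR, featureCounts, limma 3.34.9 and edgeR 3.20.9, and for read quality and trimming FastQC 0.72 and Trim Galore 0.4.3.1, without settings. The deposited values are log2 CPM, scaled by the authors to adjusted library sizes. Reads were recovered from the steps of each column (100% of values whole within 0.001) and served for read counts, shares and ratios. Genes with at least 1 CPM in at least 3 libraries (14063) were tested on the deposited log2 CPM with limma 3.58.1 (R 4.3.3), 1 mean per group over all 12 libraries, a prior variance following expression level, and Benjamini-Hochberg adjustment over all tested genes at 0.05. A prior count in the values understates changes of low genes. The pool fit used the same model. P-values measure the spread between animals, 3 per group.

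Copies were sought with 50, 75 and 100-base windows in GENCODE M21 transcripts. The text names all members, tested nuclear copies that bear on a member, up to 3 genes of each nuclear list by smallest day 3 p, and the 5 nuclear genes most correlated with the mitochondrial mRNA. Members and lists were chosen with earlier results of these data known. Code was tested on simulated data. Alternatives were other scalings, filters, an added CPM, voom, no trend, fewer groups, left-out libraries and a replicate block. Shares and ratios were compared with exact permutation tests over libraries.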

Additional observations from a re-analysis of the deposited data

Results flagged for a closer look

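The inhibitor effect differed between the days, by the interaction term in limma at an adjusted p below 0.05, for 15 of 25 tested members on the deposited scale, all with a positive sign, where 13.2% of all tested genes passed with that sign. The effect at day 7 minus that at day 3, in log2 units, was 1.07 for mt-Nd1, 1.21 for mt-Nd2, 1.19 for mt-Nd4, 1.07 for mt-Nd5, 0.67 for mt-Nd6, 0.94 for mt-Cytb and 0.91 for mt-Co1. It was 0.55 for mt-Rnr2, the only rRNA in this set. Among the tRNAs it was 1.95 for mt-Tm, 1.58 for mt-Tw, 1.33 for mt-Te, 1.25 for mt-Ti, 1.19 for mt-Tl1, 1.02 for mt-Ty and 0.83 for mt-Tp. The filter favoured a positive value for mt-Tw, which reached 1 CPM mostly in anti-miR-106b day 7 libraries.

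Relative to the summed mitochondrial mRNA, 6 members differed in the same test, where 0.0782% of all tested genes did with a positive sign and 87.6% with a negative one. The values were 0.95 for mt-Tm, -0.33 for mt-Nd6, -0.45 for mt-Rnr2, -0.55 for mt-Tc, -0.64 for mt-Rnr1 and -1.59 for mt-Co2, which rests on 13 to 50 reads in a library. It reached 1 CPM in scrambled libraries only, all those of day 7 among them. The filter therefore favoured a negative value for mt-Co2. Leaving out 1 library ended the call of mt-Nd6 in 2 cases (adjusted p 0.0509 and 0.0525), of mt-Rnr2 in 7 (0.0529 to 0.0819) and of mt-Tc in 8 (0.0575 to 0.159). Without anti-miR-106b day 7 replicate 1 the number of members was 3.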

How the results depend on the processing

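The alternatives followed 116 values of single members. These were all values that passed in the main fits, and those of mt-Co2, mt-Co3, mt-Tn and mt-Tc on the deposited scale. All other values that did not pass were left out, so the counts do not describe every member and few calls could be gained. Direction and side of the threshold stayed the same in 2124 cases. A call was lost in 128 and gained in 10, and the sign reversed in 19. Under quantile normalization the protein-coding members passing in either direction numbered 5 in the day 3 inhibitor comparison and 3 in the scrambled day comparison. In the difference between the days they numbered 4. In the same order, 5881, 10041 and 3736 of all 14057 genes tested on that scale passed in either direction. On the deposited scale the members passing numbered 8, 7 and 7, and the cause was not tested. Quantile normalization reversed the scrambled day change of mt-Nd1 (-0.27), mt-Nd2 (-0.059), mt-Nd4 (-0.22), mt-Nd5 (-0.049), mt-Nd6 (-0.041) and mt-Cytb (-0.12). The day change of mt-Co2 with anti-miR-106b was 0.39 under quantile normalization and 0.018 with voom. For mt-Co3 the scrambled day change was -0.041 when scaled to total reads without the members, and the difference between the days was -0.0033 with 1 CPM added.

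With members of at least 90% unique windows alone, which leaves out mt-Co1 and mt-Nd4, the share differences were -1.65 points for the day 3 inhibitor comparison, 3.36 and 1.16 for day 7 against day 3 with anti-miR-106b and with scrambled, and 2.20 for the difference between the days.

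Leaving out 1 library at a time, the protein-coding members passing numbered 7 to 9 in the day 3 inhibitor comparison and 0 at day 7, 7 to 8 between days with anti-miR-106b, 7 with scrambled and 7 for the difference between the days. For tRNAs and rRNAs together the ranges were 9 to 13, 0 to 1 (1 without scrambled day 7 replicate 1), 13 to 16, 10 to 14 and 7 to 10. Relative to the pool they were 1 to 6, 0 to 4, 7 to 11, 5 to 12 and 3 to 8. The number of all tested genes passing on the deposited scale moved too, out of 13975 to 14042 tested. In the same order it was 3489 to 5665, 0 to 456 (456 without scrambled day 7 replicate 1), 10449 to 11170, 8551 to 9674 and 2066 to 4552. The share differences ranged from -2.88 to -2.77, -0.0784 to 1.10, 5.19 to 5.55, 1.48 to 2.66 and 2.75 to 3.93 points. Without scrambled day 7 replicate 3 they were -0.0784, 2.66 and 2.75 for the day 7 inhibitor comparison, the scrambled day comparison and the difference between the days. Of the values that did not pass, only those of mt-Co2, mt-Co3, mt-Tn and mt-Tc were followed here. Sign changes of other members that did not pass are not listed. Among those followed, sign changes were at day 7 for mt-Tn (range -0.17 to 0.21, above 0 without anti-miR-106b replicate 1 or, at 0.18, scrambled replicate 2) and mt-Tc (range -0.14 to 0.24, with -0.0061 and -0.075 without anti-miR-106b replicates 2 and 3 and -0.14 without scrambled replicate 3). They also occurred for mt-Co2 between days with anti-miR-106b (0.25 without day 3 replicate 3, 0.16 and 0.037 without day 7 replicates 1 and 3) and for mt-Co3 in the difference between the days (range -0.014 to 0.51, below 0 without anti-miR-106b day 3 replicate 1).

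After removal of group means, same-numbered libraries had correlations of -0.185 to 0.144 over the tested genes. These values cannot show whether such libraries shared an animal or were handled together. The labels give only a replicate number. With a replicate block, 8 protein-coding and 11 other members passed at day 3, as without it, and the relative counts, a fit added after seeing the data, were 5, 0, 9, 7 and 7. The block ended 3 calls of single members, mt-Rnr2 for the difference between the days (adjusted p = 0.0616) and, relative to the pool, mt-Nd4 in the scrambled day comparison (0.0551) and mt-Tc for the difference (0.0512). Depth limits mt-Tf, mt-Tv, mt-Ts1 and mt-Tt, with at most 11 reads in a library.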

Other observations

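The untested threonine tRNA mt-Tt had 3, 0 and 7 reads with anti-miR-106b at day 7 and 8, 11 and 1 with scrambled at day 7. At day 3 it had 10, 5 and 5 reads with anti-miR-106b and 8, 8 and 8 with scrambled. The library with 1 read, scrambled day 7 replicate 3, is also the library with few reads of mt-Th, mt-Ts2 and mt-Tl2. In that library mt-Nd3 had 1 read, against 9 and 12 in the other scrambled day 7 libraries. The phenylalanine and valine tRNAs mt-Tf and mt-Tv, which flank mt-Rnr1, had at most 5 and 7 reads in a library, while mt-Rnr1 between them had 14456 to 63565. Serine tRNA mt-Ts1, whose position falls in the interval with nuclear copies, had at most 2 reads.

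Among the nuclear copies, Gm13341, which shares windows with mt-Co2, had 114, 97 and 126 reads with anti-miR-106b at day 7 and 84, 78 and 36 with scrambled at day 7. Its difference between the inhibitor effects of the days was 1.65 ± 0.39 in log2 units (SE, limma adjusted p = 0.00976). Gm13339 (1.69, adjusted p = 0.0105) and Gm28438 (1.07, adjusted p = 0.0291) passed too, where 13.2% of all tested genes passed with that sign. No other tested copy passed. For Gm28661, the copy of mt-Co2 without a mismatch over its aligned bases, that difference was 0.14 ± 0.21 and did not pass (adjusted p = 0.666).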
